A study of Mus musculus with 4 samples.

Results

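Megakaryocyte-primed cells were a small set of LSK cells, the Lin− Sca1+ Kit+ bone marrow population that holds hematopoietic stem cells and multipotent progenitors. They were chosen on their RNA. A cell was a member when it held at least 2 unique molecular identifiers (UMIs, each standing for 1 captured transcript) of Pf4, at least 1 UMI of 2 or more of the 5 surface genes Gp1bb, Gp9, Gp5, Itga2b and F2r, and no UMI of the erythroid genes Klf1 and Ermap. The rule was applied to barcodes with at least 1000 UMIs, with at most 10% of UMIs from mitochondrial genes and without a copy of the same barcode at 3 or more times the UMIs in another library. These conditions kept 13892 of 25242 deposited barcodes, and 313 of the 13892 were members. Copies were most frequent in control 2, where 5595 of 6839 barcodes had one and 1193 were kept. The 6 genes of the rule are described here without a test of members against other cells, since they chose the members.

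Single LSK cells were profiled in 4 libraries, 2 from control and 2 from Nup358 knockout mice, and each library was pooled from 3 mice of 9 to 12 weeks, so that each genotype had 6 mice. Control mice were Nup358 fl/fl, which the labels call wild-type, and knockout mice were Nup358 fl/fl with CreERT2 expressed from the Rosa26 locus. Both were given tamoxifen, by which exon 2 of Nup358 was deleted in all tissues of the knockout mice and not in blood cells alone. Individual mice could not be told apart within a library, so n is 2 libraries per genotype throughout and p-values rest on the spread between pools. The deposited barcodes held 60330267 UMIs in control 1, 25111828 in control 2, 35986936 in knockout 1 and 54850344 in knockout 2.

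Megakaryocytes are the marrow cells that shed platelets. Their program is led by GATA1 with its cofactor FOG1 (gene Zfpm1) and by ETS factors such as FLI1, and part of it is shared with red cell precursors. Within the LSK population, cells that already transcribe platelet genes while keeping stem and progenitor genes are called megakaryocyte-primed, and the MPP2 subset is known for this bias. Priming shows first in receptors and in alpha granule proteins such as platelet factor 4 (Pf4), whereas proteins of platelet release, such as beta-1 tubulin (Tubb1), come late. GATA1 binds sites with the letters GATAA and ETS factors bind sites with GGAAG or close variants.

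The 250 bases before the RefSeq start of 4 of the rule's genes are shown because the rule rests on the transcripts that begin there. Letters are on the gene's strand, 5′ to 3′, from build GRCm38.p6, and capitals mark GATAA and GGAAG on either strand (TTATC and CTTCC when read from the other). Pf4, the platelet factor 4 chemokine, is at chr5:90772185-90772434 (plus strand). Gp1bb, a subunit of the receptor for von Willebrand factor, is at chr16:18622404-18622653 (minus strand), and Gp9, another subunit of that receptor, at chr6:87777820-87778069 (plus strand). Itga2b, the integrin alpha subunit CD41, is at chr11:102469884-102470133 (minus strand), where the longer gene model of GENCODE covers most of the stretch.
Pf4: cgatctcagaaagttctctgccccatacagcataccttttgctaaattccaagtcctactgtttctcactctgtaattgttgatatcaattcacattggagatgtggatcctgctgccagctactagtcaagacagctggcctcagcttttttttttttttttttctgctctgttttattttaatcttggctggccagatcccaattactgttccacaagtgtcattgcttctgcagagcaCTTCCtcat
Gp1bb: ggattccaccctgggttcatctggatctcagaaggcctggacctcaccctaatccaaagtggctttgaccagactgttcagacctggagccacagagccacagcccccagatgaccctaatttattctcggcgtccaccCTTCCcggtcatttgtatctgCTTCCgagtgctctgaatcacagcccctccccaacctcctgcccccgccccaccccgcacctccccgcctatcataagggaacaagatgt
Gp9: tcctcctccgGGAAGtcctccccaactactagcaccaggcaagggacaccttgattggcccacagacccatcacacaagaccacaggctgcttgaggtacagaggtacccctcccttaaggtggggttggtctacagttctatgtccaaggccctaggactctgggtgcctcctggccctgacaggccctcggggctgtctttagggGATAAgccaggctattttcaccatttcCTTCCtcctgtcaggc
Itga2b: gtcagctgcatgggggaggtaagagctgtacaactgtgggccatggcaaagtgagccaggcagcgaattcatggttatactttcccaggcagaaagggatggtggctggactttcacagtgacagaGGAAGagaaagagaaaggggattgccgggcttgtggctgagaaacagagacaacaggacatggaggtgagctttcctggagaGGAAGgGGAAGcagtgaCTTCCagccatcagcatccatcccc
The Pf4 stretch held 1 GGAAG and no GATAA, Gp1bb held 2 GGAAG, Gp9 held 1 GATAA and 2 GGAAG, and Itga2b held 4 GGAAG. Over the 6 genes of the rule, GATAA was in 2 stretches (33.3%) and GGAAG in 5 (83.3%). Among the same stretches before all 32851 RefSeq starts, the shares were 22.6% and 64.1%, and no motif overlapped another in the 6. A match is a description of the letters, not evidence that a factor binds there.

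The members numbered 125 in control 1, 15 in control 2, 48 in knockout 1 and 125 in knockout 2. Control 2 therefore rests on 15 cells and 194971 UMIs, against 1060774, 1827025 and 2638609 UMIs in the members of the other libraries in the same order. The median member held 6222, 12518, 31256 and 18424 UMIs, and the median other kept cell 6272, 13312.5, 17693 and 14486.5. Mitochondrial genes took a median of 2.67% to 3.23% of the UMIs of members and 2.85% to 3.51% of those of other cells. A barcode sequence present in another library was found for 31, 15, 47 and 114 members (207 in all), none of them at 3 or more times the UMIs there, and no barcode was a member in 2 libraries. Doublets were not called, and 29, 0, 22 and 36 members held 2 or more UMIs of Elane, Mpo, Cd79a, Dntt, Mcpt8 or Siglech in sum, genes of other lineages.

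A threshold of 2 UMIs is a lower level in a deeper cell, and Pf4 relative to the UMIs of the cell, as counts per 1000000 UMIs (CPM), followed this. The median was 1339 in control 1, 613 in control 2, 153 in knockout 1 and 286 in knockout 2, and single cells reached from 24.5 in knockout 1 to 19666 in knockout 2. Members with at least 2 Pf4 UMIs per 3000 UMIs of the cell were 86 of 125 (68.8%), 7 of 15 (46.7%), 8 of 48 (16.7%) and 35 of 125 (28.0%). Genotype and depth therefore moved together among the members.

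**Figure D1:**
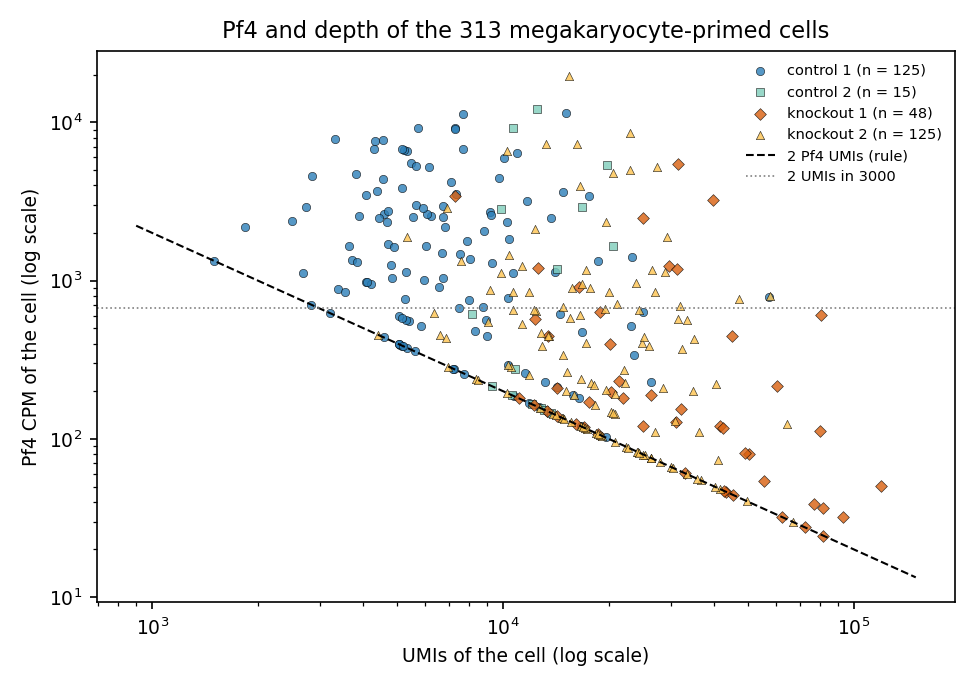
Pf4 CPM of the cell (vertical, log scale) against UMIs of the cell (horizontal, log scale) for each of the 313 megakaryocyte-primed cells, with libraries as colors and shapes. The dashed line is 2 Pf4 UMIs, which the rule sets, and the dotted line 2 UMIs in 3000. Knockout cells lie deeper and at lower CPM, with medians of 153 and 286 CPM against 1339 and 613 in control. In Pf4 UMIs the medians were 4 and 5 in knockout and 9 and 5 in control.

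Pf4 summed over the members was 1992 CPM in control 1, 2600.4 in control 2, 391 in knockout 1 and 822 in knockout 2. In the other kept cells it was 11.1, 5.47, 10.4 and 14.5 CPM. Both knockout libraries lay below both control libraries in the members, at levels that the threshold and the depth of the cells help to set. Gp1bb had 205, 195, 38.9 and 78.5 CPM in the members and was at most 4.02 CPM in the other cells. Itga2b had 272, 236, 61.3 and 151 CPM, and F2r, the thrombin receptor PAR1, had 72.6, 123, 52.0 and 81.1. Gp9 ranged from 25.7 to 82.1 CPM and Gp5, a further subunit of the von Willebrand factor receptor, from 19.2 to 66.0.

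Just inside the Pf4 threshold, 80 members had 2 Pf4 UMIs (20, 6, 14 and 40 by library), with Pf4 at 98.3 CPM and Vwf, the von Willebrand factor gene, at 11.7 CPM. The 233 members with 3 or more Pf4 UMIs had Pf4 at 1305 CPM and Vwf at 74.7. Just outside, 163 cells met every other condition with 1 Pf4 UMI, and their Vwf was 11.03 CPM, close to that of the members with 2. Another 70 cells with 2 or more Pf4 UMIs had only 1 of the 5 surface genes and 54 had none, and Vwf was 13.7 and 9.17 CPM in them. The erythroid condition left out 40 cells with 1 UMI of Klf1 or Ermap and 19 with 2 or more, and the 19 had the erythroid enzyme gene Car1 at 181 CPM.

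The name of the cells was checked against genes that the rule did not use. Many receptor, granule and signalling genes of megakaryocytes were present, while others, among them late genes, were near 0. Ppbp, the most abundant chemokine of platelets, was detected in 5 of 313 members (1.60%, exact 95% interval 0.521 to 3.69%). Tubb1 had 0.943 CPM in control 1 and none in the other libraries, Gp6, the collagen receptor, reached 0.379 CPM, and Myl9 was at 0 in all 4. The listed receptor genes Gp1ba (5.66, 0, 1.64 and 2.65 CPM) and Clec1b (9.43, 0, 0.547 and 1.14) were also low. The profile was thus that of a part of the megakaryocyte genes, with late genes at or near 0 at this depth. Free RNA was judged from 172 mature B-like cells (Cd79a and Ms4a1 present, Kit absent), of which 1, 3, 80 and 88 came from the 4 libraries, so that the control libraries had almost none. None had a UMI of Pf4, Gp1bb, Gp9, Gp5, Itga2b or Vwf, which allows a share of up to 1.74%, and 2 of 172 (1.16%) had F2r, at a median of 2005.5 UMIs against 13680 in members. Among all other kept cells, 920 of 13579 (6.78%) had a Pf4 UMI. These intervals and limits cover counting error only.

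Receptors and adhesion molecules of megakaryocytes and platelets were, for many genes of the list, higher in the members than in the rest of their library. Of 20 genes outside the rule, 12 were higher in all 4 libraries and 0 were lower in all 4, while among all 14523 genes detected in members 1639 were higher and 1983 lower. These counts over all genes stand beside those of each list that follows. The median over the list of the mean log2 ratio, members over other cells with 5 CPM added, was 0.50, against -0.01 over all genes. Itgb3, the integrin partner of Itga2b, had 74.5, 41.0, 27.4 and 33.0 CPM, against a mean of 4.80 in the other cells. Treml1, a receptor of platelet granules, had 63.2, 46.2, 15.3 and 30.7 CPM, with 2.33 in the other cells.

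Among receptors for soluble signals, F2rl2 (the thrombin-family receptor PAR3) had 20.7, 30.8, 10.9 and 10.99 CPM in the members and a mean of 0.728 in the other cells. P2ry1, an ADP receptor, ranged from 12.6 to 25.6 CPM against 3.09. The tetraspanin Cd9 had 175, 374, 132 and 156 CPM and was highest in control 2. Selp (P-selectin) ranged from 32.3 to 46.2 CPM and Esam, an adhesion molecule also known from stem cells, from 40.5 to 66.7, with means of 24.5 and 22.3 in other cells. Summed over the 20 genes, receptors had 690.1, 892, 394 and 504 CPM in the members and 159 to 229 in the other cells, and Cd9 was the most abundant.

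Granule and secreted genes divided into strong and weak members of their list. Of 14 genes, 8 were higher in all 4 libraries and 1, F13a1, was lower in all 4. F13a1 encodes the A subunit of coagulation factor XIII and is also a monocyte gene, and it had 18.9, 0, 14.2 and 5.31 CPM against a mean of 45.8 in the other cells. Vwf had 113, 113, 14.2 and 59.5 CPM and at most 3.89 CPM in other cells, so that knockout 1 held the least. Mmrn1, a multimerin that carries factor V, had 41.5, 25.6, 12.6 and 22.4 CPM. Timp3, a protease inhibitor, was at 169 CPM in control 2 and between 25.2 and 37.7 in the other libraries. Angpt1 (angiopoietin 1) had 261, 246, 246 and 261 CPM, with a mean of 146 in other cells, and Tgfb1 had 415, 472, 415 and 541. Those 2 genes differed little between the libraries.

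Genes of integrin signalling, secretion and the cytoskeleton were higher for most of their list. Of 20, 15 were higher in all 4 libraries and 0 lower, and their sums were 2307, 2744, 1450.4 and 1719 CPM in members against 789 to 833 in other cells. Sdpr (cavin 2, a protein of caveolae) had 162, 87.2, 42.7 and 73.1 CPM and at most 3.47 in other cells. Rap1b, the small GTPase that switches on platelet integrins, had 581, 641, 273 and 356 CPM against 106 to 116 elsewhere. Plek (pleckstrin, a platelet target of protein kinase C) had 162, 262, 85.4 and 111. Fermt3 (kindlin-3), which activates integrins, ranged from 192 to 344 CPM and talin (Tln1) from 338 to 378. Slc14a1, a urea transporter, had 103, 113, 88.1 and 116 CPM, with 10.1 to 15.1 in the other cells, and its knockout and control values overlapped.

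**Figure D2:**
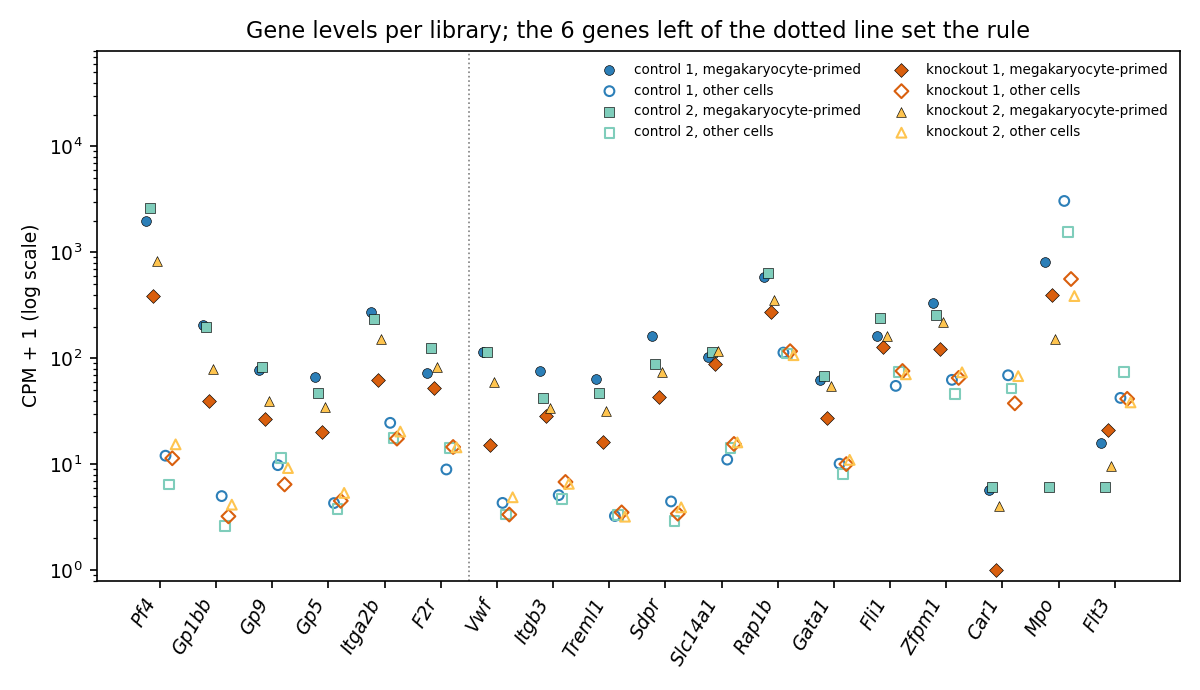
CPM with 1 added (log scale) of 18 genes, in the megakaryocyte-primed cells (filled) and the other kept cells (open) of each library. The 6 genes left of the dotted line set the rule; Vwf to Zfpm1 were above the other cells in all 4 libraries, and Car1, Mpo and Flt3 were below them in all 4.

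Transcription factors shared by megakaryocytes and red cells were also higher. Of 19, 14 were higher in all 4 libraries and 3 (Ldb1, Mafk and Myb) lower. Gata1 had 62.2, 66.7, 26.3 and 54.2 CPM, against 7.13 to 10.0 in other cells, and Zfpm1 had 334, 256, 121 and 220. Gfi1b, a repressor needed in both lineages, had 49.0, 92.3, 30.1 and 45.1. Fli1 had 162, 241, 127 and 162 CPM against a mean of 68.2 in other cells, while Myb, which favors erythroid over megakaryocyte fate, had 169, 174, 261 and 244 against 272.

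Erythroid-primed cells, defined here by 2 or more UMIs of Klf1 and Ermap in sum, numbered 221 (115, 22, 23 and 61 by library) and gave a neighboring lineage for description. Car1 averaged 3.22 CPM in the megakaryocyte-primed cells, 1636 in the erythroid-primed cells and 55.8 in other cells. Gata1 averaged 94.6 CPM in the erythroid-primed cells, above each of the 4 megakaryocyte-primed values, and Fli1 averaged 45.9, below each of them. Of 22 erythroid genes, 5 were higher than in other cells in all 4 libraries and 5 lower, beside 1639 and 1983 of all 14523 genes. Hba-a2, Slc4a1, Alas2, Cldn13 and Sphk1 were at 0 in the members. Some erythroid genes were present all the same. Car2, a carbonic anhydrase, had 309, 498, 377 and 435 CPM, Mfsd2b, a sphingosine-1-phosphate exporter of red cells and platelets, had 51.8, 71.8, 20.8 and 40.9, and Epor, the erythropoietin receptor, had 7.54, 35.9, 5.47 and 11.4. UMIs of the near-identical alpha and beta globin gene pairs may have been divided between the copies, so the value of a single copy, such as Hba-a2 or Hbb-bs, is uncertain.

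Stem cell genes were mixed. Of 17, 5 were higher in all 4 libraries and 6 lower, beside 1639 and 1983 of all 14523 genes. The stem cell factor gene Hlf had 76.4, 30.8, 108 and 62.5 CPM in the members, a mean of 131 in other cells and 245 in cells chosen for Hlf and Mecom. Tek, the receptor of angiopoietin 1, had 13.2, 25.6, 6.57 and 7.96 CPM against 3.32. Of the surface genes by which LSK subsets are sorted, Slamf1 (CD150) had 14.1, 20.5, 24.1 and 33.7 CPM, above its mean of 6.40 in other cells. Cd48 had 37.7, 46.2, 122 and 99.3 CPM and was below the other cells of its library in all 4, as was Ly6a (Sca1), at 96.2, 35.9, 189 and 115. Flt3, which marks lymphoid-primed MPP4, had 15.1, 5.13, 20.3 and 8.72 against 48.2, and Cd34 had 134, 61.5, 174 and 121 against 269. Kit itself had 86.7, 118, 102 and 71.6 CPM, around the 90.3 of the other cells. Of the 8 surface genes, 2 were higher than in other cells in all 4 libraries and 4 lower. MPP2 cells are sorted as positive for CD150 and CD48 and low in FLT3, and of the 17 genes that the study lists for MPP2, 16 were higher in all 4 libraries and C9 was at 0. Of these 17, 5 belong to the rule and the study chose the list, so the count is not independent.

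Most neutrophil, monocyte and lymphoid markers were lower than in other cells but were not absent, while markers of further lineages were mixed. Neutrophil and monocyte genes were lower in all 4 libraries for 18 of 20 genes, and their sum was 2924, 318, 1406 and 607 CPM in members against 11145, 8813, 2171 and 1514 in other cells, with Prtn3 the most abundant. Mpo, the myeloperoxidase gene, had 814, 5.13, 398 and 151 CPM in the members. In control 1, 35 of the 125 members held an Mpo UMI and 1 cell held 27.1% of them. Lymphoid genes were lower for 10 of 12, with a sum of 88.6, 25.6, 94.7 and 125 CPM, Dntt the most abundant, and Rag1 and Igll1 at 0. Basophil and mast cell genes summed to 17.0, 5.13, 26.8 and 172 CPM against 50.5, 35.0, 107 and 188 in other cells, and 4 of 8 were lower in all 4 libraries. In knockout 2, 1 cell held all 200 UMIs of Prss34, which was at 75.8 CPM there. Of 12 genes listed for other cell types, 5 were lower in all 4 libraries and 0 higher, beside 1983 and 1639 of all 14523 genes. Their sums were 541, 231, 307 and 269 CPM in members and 339, 394, 749 and 592 in other cells. Cd3e, Cdh5 and Col1a1, markers of T cells, endothelium and stroma, were at 0, and Nkg7 was at a mean of 227 CPM against 225 in other cells. The part of these cells in the results was not tested beyond leaving out members with other lineage genes.

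Cell cycle genes set control 2 apart. G2/M genes (22) summed to 3644, 774, 2666 and 3240 CPM in the members by library and to 2588, 1641, 2300 and 2818 in other cells, while G1/S genes (18) summed to 1704, 2082, 1877 and 1724. After each cell was thinned to 3000 UMIs, which left 306 members, at least 2 G2/M UMIs were found in 83.1%, 20.0%, 89.6% and 91.2% of the members. The proliferation gene Mki67 was detected in 57.6%, 20.0%, 47.9% and 61.6% of members and in 38.0%, 17.3%, 33.6% and 41.8% of other cells. The 15 members of control 2 thus had few G2/M transcripts, as the other cells of that library did.

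Outside the rule, genes with 20 or more CPM in the members of every library were ranked by their excess over other cells. Ranked by the smallest of the 4 log2 ratios, the genes at the head included Sdpr (2.68 to 4.30), Slc14a1 (2.25 to 2.84), Tuba8 (1.97 to 3.12), an alpha tubulin, and Timp3 (1.86 to 4.16). They were followed by Rab27b, Itgb3, Mfsd2b, Pdcd4, Serpine2, Plxnc1, Med12l, Rap1b, Apoe, Gata1, Gucy1a3, Gng11, Gfi1b, Dach1 and Cd9. Rab27b, which moves platelet granules to the membrane, had 33.0, 76.9, 31.2 and 30.7 CPM, and Gucy1a3, a subunit of the nitric oxide receptor, had 49.96, 66.7, 20.8 and 23.9. Apoe, the lipid carrier, had 544, 723, 371 and 309 CPM against 90.5 to 237 in other cells. The ranking is against all other cells together, and some of its genes were as high in erythroid-primed cells. Apoe had 683, 641, 770 and 443 CPM there, and Mfsd2b averaged 48.6 CPM there and 46.3 in the members. Sdpr, in contrast, averaged 4.36 CPM there and 91.3 in the members. The genes furthest below other cells, of those with 20 or more CPM in the other cells of every library, were S100a9, S100a8, Car1, Dntt, Ly6c2, Tyrobp, Irf8, Slpi, Cd53 and Satb1, which are genes of neutrophils, red cells, lymphoid cells or mature leukocytes, and S100a9 had at most 5.13 CPM in members and at least 51.9 in other cells.

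Single members differed widely at equal depth. After thinning to 3000 UMIs, Pf4 was still detected in 90.7%, 86.7%, 43.8% and 63.2% of the members, and in 1.72% to 3.01% of other cells. Receptor, granule, and signalling genes outside the rule had a median of 12.5, 14, 10 and 9 UMIs per member and 11 over all 306, against 4 in other cells. Within libraries, cells with more UMIs of the 6 rule genes had more of these other megakaryocyte genes (Spearman correlation 0.58, 0.52, 0.56 and 0.56 across 118, 15, 48 and 125 cells). Across the 306 cells, those megakaryocyte genes and the neutrophil and monocyte genes ran against each other (Spearman correlation -0.37, taken within libraries). All these counts share the 3000 UMIs of a cell, and the correlations are a description.

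**Figure D3:**
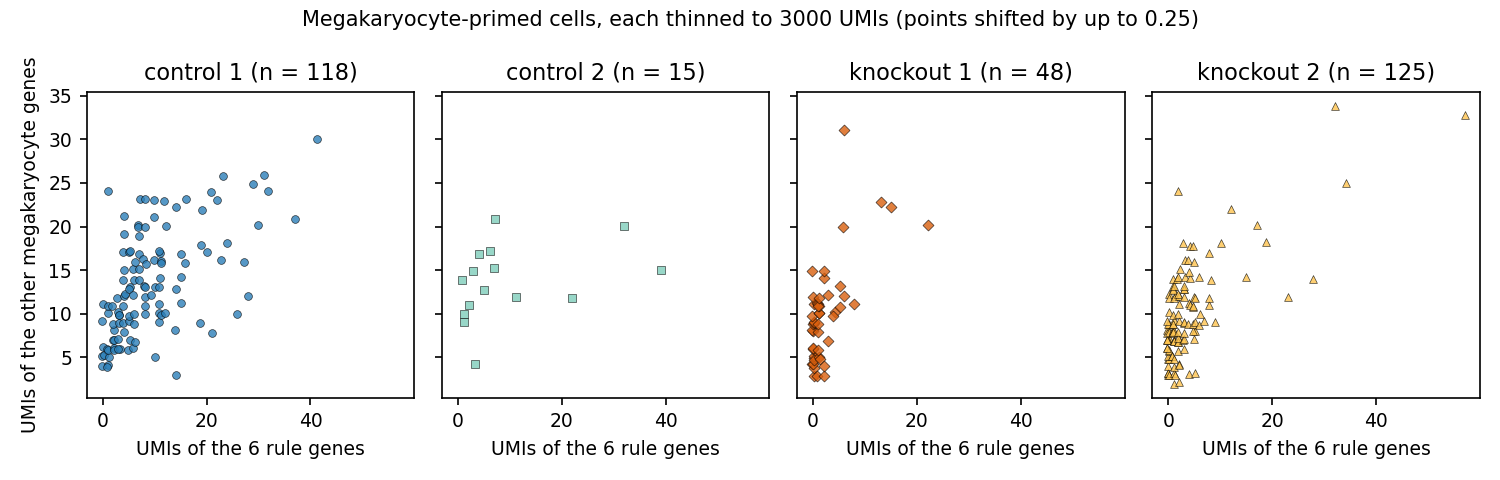
UMIs of the 6 rule genes (horizontal) and of megakaryocyte genes outside the rule (vertical) in each megakaryocyte-primed cell after thinning to 3000 UMIs, one panel per library with points shifted by up to 0.25. Cells spread from near the median of other cells (4 UMIs) to above 30, and cells with more rule gene UMIs had more of the others, with Spearman correlations between 0.52 and 0.58.

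The share of kept cells that were megakaryocyte-primed addresses whether loss of Nup358 changed how many LSK cells carried this program. It was 1.60% in control 1 (exact 95% interval 1.34 to 1.91%), 1.26% in control 2 (0.705 to 2.07%), 3.06% in knockout 1 (2.26 to 4.03%) and 3.75% in knockout 2 (3.13 to 4.45%). The mean was 1.43 ± 0.245% in control and 3.40 ± 0.493% in knockout (SD, n = 2), and both knockout libraries lay above both controls. The difference of 1.97 percentage points had p = 0.333 in an exact two-sided permutation test, the smallest p that 2 against 2 libraries can give. At equal depth the order was lost. With every cell thinned to 3000 UMIs before the rule was applied, 65 of 6730, 6 of 1187, 5 of 1453 and 19 of 3144 cells met it, which is 0.966%, 0.505%, 0.344% and 0.604%, and the difference turned to -0.26 points. At 5000 UMIs, a depth added after seeing the data, the shares were 1.25%, 0.852%, 0.796% and 1.63% (difference 0.164 points). With Pf4 at 2 or more per 3000 UMIs of the cell in place of 2 UMIs, also added afterwards, they were 1.10%, 0.587%, 0.509% and 1.05%. In none of these 3 settings did both knockout libraries lie above both controls. With copied barcodes kept, the shares were 1.54%, 0.562%, 2.03% and 3.43%, with that of control 2 lower by more than 2-fold and the difference at 1.68 points. The share of erythroid-primed cells, by a gate that is also a threshold in UMIs, was 1.47%, 1.84%, 1.46% and 1.83%. How that share depends on depth was not tested.

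**Figure D4:**
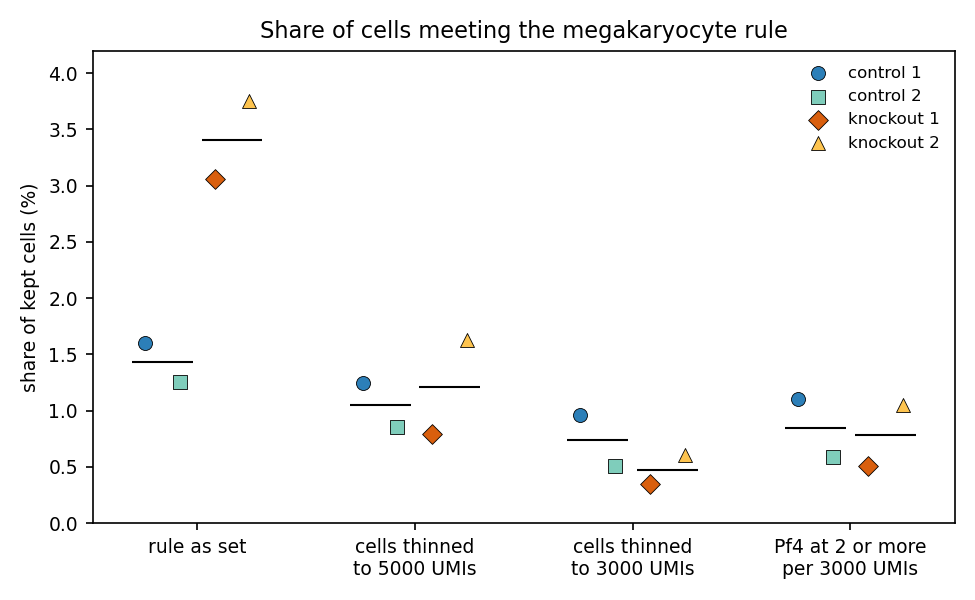
Share of cells that met the megakaryocyte rule (%), by library, for the rule as set, for cells thinned to 5000 or 3000 UMIs (shares of the cells that deep), and for Pf4 at 2 or more per 3000 UMIs of the cell. Lines are genotype means of 2 libraries; the knockout libraries are above the controls for the rule as set (3.06% and 3.75% against 1.60% and 1.26%). In the other 3 settings knockout 1 is below both controls, and knockout 2 is above both at 5000 UMIs and between them in the rest.

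Nup358 is encoded by Ranbp2, which lies on the plus strand of chromosome 10 (58446920 to 58494356 in GRCm38, ENSMUSG00000003226). Ranbp2 had 122, 76.9, 113 and 106 CPM in the megakaryocyte-primed cells. Its log2 fold change, knockout over control, was 0.03 with a standard error of 0.21 (adjusted p = 0.985, edgeR quasi-likelihood test with Benjamini-Hochberg adjustment). Exon 2 lies away from the 3′ end that was read, so this value does not check the genotypes.

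Between genotypes, the megakaryocyte-primed cells of knockout libraries had less RNA of several immediate early genes. UMI sums of the members were tested per library with edgeR's quasi-likelihood test, and of 8879 genes 24 passed an adjusted p of 0.05 (0.27%), 1 higher (0.0113%) and 23 lower (0.259%). At an unadjusted p under 0.05 there were 392 higher and 484 lower, and the median log2 fold change was 0.01. DESeq2 found 0 higher and 23 lower, and 16 of its calls were among the 24. The number of calls moved with the libraries. Without control 1 it was 83 higher and 116 lower, without control 2 it was 66 and 126, without knockout 1 it was 5 and 22, and without knockout 2 it was 3 and 41, where the lone library of a genotype is assumed to vary like the pair. With members chosen after thinning to 3000 UMIs, an alternative added after seeing the data that left 65, 6, 5 and 19 cells, 14 of 3802 genes passed (0.368%), 2 higher (0.0526%) and 12 lower (0.316%). With Pf4 at 2 or more per 3000 UMIs of the cell, also added afterwards, 4 of 5654 genes passed in edgeR (0.0707%), 0 higher (0%, with 121 at an unadjusted p under 0.05) and 4 lower.

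Immediate early genes are switched on within minutes of a stimulus and include the AP-1 subunits (Fos and Jun families), Egr1 and several feedback regulators. Of 21 listed, 18 were tested in the megakaryocyte-primed cells and 7 fell, with 0 higher, against 0.259% of all genes lower. Their median log2 fold change was -1.60 beside 0.01 over all genes, 17 of 18 were below 0, and in 16 of 18 both knockout libraries lay below both controls, which held for 20.6% of all genes tested. In sum they had 7050 and 6929 CPM in control members and 1632 and 2454 in knockout members. The list was chosen with earlier results of these data known, so its counts beside those of all genes are a description.

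Jun (chromosome 4 of GRCm38, 95049034 to 95052222, minus strand) had 1389, 1082, 202 and 268 CPM. Both knockout libraries lay far below both controls, with a log2 fold change of -2.39 (SE 0.22, edgeR adjusted p = 0.00202), and the call was kept in 19 of 19 alternatives. Fos had 1142, 1354, 207 and 445 CPM (log2 fold change -1.93, SE 0.31, edgeR adjusted p = 0.0304, kept in 18 of 19). Egr1, a zinc finger factor, had 316, 533, 61.8 and 124 CPM (-2.11 on the log2 scale), Jund 1540.4, 872, 282 and 372 (-1.88), Klf6 308, 328, 58.0 and 110 (-1.88), Ier2 396, 405, 96.9 and 147 (-1.70) and Btg2, which restrains proliferation, 158, 189.8, 37.8 and 53.4 (-1.84). None of the 7 overlapped between genotypes, where 20.6% of all genes tested had both knockout libraries below both controls. Fosb (758, 374, 174 and 242 CPM), Zfp36 (98.0, 226, 42.7 and 39.0) and Nr4a1 (35.8, 97.5, 11.5 and 13.3) did not pass, with edgeR adjusted p of 0.0593, 0.0721 and 0.124. Myc, at 68.8, 56.4, 97.4 and 69.0 CPM, was the member of the list with a fold change above 0.

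The other kept cells showed the same genes lower. There 11 of 21 fell (of 13705 genes 460 passed in those cells, or 3.36%, with 1.31% higher and 2.05% lower), with a median log2 fold change of -1.24, and Jun was at 740, 629, 240.4 and 210.2 CPM (-1.64). Cells chosen for Hlf and Mecom, a part of these other cells, had the list at 6337, 6454, 2014 and 2362 CPM in sum. The members had 7050, 6929, 1632 and 2454, and no test against the cells chosen for Hlf and Mecom was run. The fall in the megakaryocyte-primed cells exceeded that in the other cells for Jun by -0.70 (SE 0.12) on the log2 scale, in an edgeR test of the difference between the 2 fold changes that is described further on and that gives all genes 1 shared spread. There 4 of 21 genes passed (Jun, Fosb, Jund and Ier2), against 1.56% of all genes. DESeq2 called none of the 4 (adjusted p of 0.305 or more), and none was among the genes called without each library in turn. With members chosen at equal depth, 7 of 14 tested immediate early genes fell (0.316% of all genes), with a median of -1.58. Jun was then -2.12, Fos -2.21 and Fosb -2.52, while Btg2 was -0.79 and Egr1 -1.44, and both no longer passed (edgeR adjusted p of 0.837 and 0.12). With Pf4 at 2 or more per 3000 UMIs of the cell, 2 of 16 immediate early genes passed (0.0707% of all genes were lower), Jun at -1.81 and Fos at -2.16, and the median was -1.43. Jund, Klf6, Ier2, Egr1 and Btg2 were then -1.50, -1.68, -1.39, -1.25 and -1.08 and did not pass (edgeR adjusted p of 0.11 to 0.447).

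**Figure D5:**
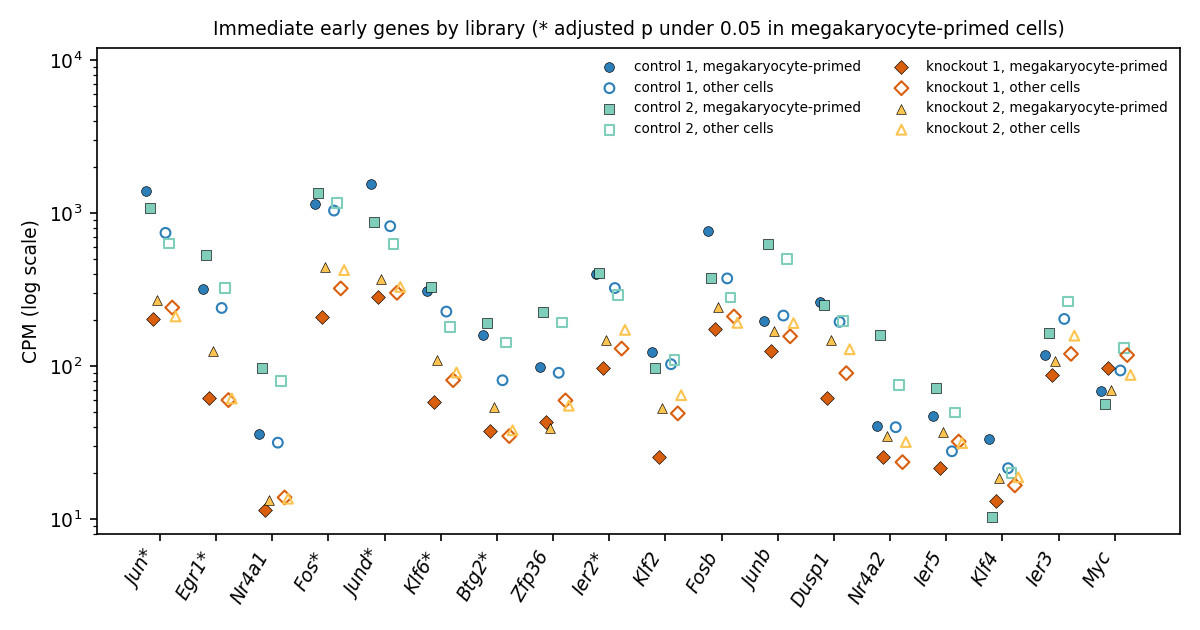
CPM (log scale) of the 18 immediate early genes tested between genotypes, in the megakaryocyte-primed cells (filled) and the other kept cells (open) of each library, ordered by fold change. Stars mark 7 genes with an adjusted p under 0.05 in the megakaryocyte-primed cells; the knockout values lie below the control values in 16 of 18 genes.

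Other calls lay outside the immediate early list. Pf4 and Gp1bb are counted among the 23, but the rule used both and their values were given above without a test. Ache, acetylcholinesterase, long used to stain rodent megakaryocytes, had 31.1, 51.3, 2.19 and 4.93 CPM (log2 fold change -3.18, SE 0.48, edgeR adjusted p = 0.0226) and was under 1 CPM in the other cells of every library. Tbxas1, the thromboxane synthase of platelets, had 110.3, 82.1, 35.6 and 39.8 CPM (-1.41). Its call was kept in 10 of 19 alternatives, and DESeq2 gave it an adjusted p of 0.311. Aldh1a1, which makes retinoic acid, had 51.8, 56.4, 7.66 and 14.02 CPM (-2.19, SE 0.34, edgeR adjusted p = 0.0249) while its fold change in the other cells was -0.01. Each of these had both knockout libraries below both controls, as did 20.6% of all genes tested, which is no support beyond the calls. The values of Ache rest on 33, 10, 4 and 13 UMIs. Among members chosen at equal depth, Ache was -1.86, Tbxas1 -0.999 and Aldh1a1 -2.90, and no value passed (adjusted p of 0.541, 0.77 and 0.106 from edgeR).

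The remaining falls were shared in sign with the other cells. Rhob, a small GTPase that responds early to stimuli, had 125, 185, 30.7 and 27.3 CPM (-2.28, SE 0.25, edgeR adjusted p = 0.00557, kept in 18 of 19 alternatives), and Ccl3, an inflammatory chemokine, had 37.7, 25.6, 1.09 and 4.55 (-3.43). The 25.6 CPM of Ccl3 in control 2 were 5 UMIs in 1 cell. Rgs10, a regulator of G-protein signalling, had 71.6, 61.5, 18.6 and 18.9 CPM (-1.85) and shrank to -0.39 at equal depth. The nuclear long noncoding RNAs Neat1 (325, 251, 89.8 and 110.3 CPM) and Malat1 (5998, 7949.9, 2833 and 3066 CPM) fell by 1.55 and 1.25 on the log2 scale. Ypel3, Skil, Klf9, Fam173a, H1fx (a linker histone) and Adgre5 (CD97) fell by 1.21 to 1.77. DESeq2 did not call Rgs10, Ypel3, Skil, Klf9, Fam173a or Adgre5 (adjusted p of 0.103 to 0.629). Among members chosen at equal depth Rhob was -2.89 and passed (edgeR adjusted p = 0.000717), while Neat1 was -1.60, Malat1 -0.52, Ypel3 -1.06, Fam173a -0.89 and H1fx -0.79, and none of these 5 passed (edgeR adjusted p of 0.087 to 0.824). Ccl3, Skil, Klf9 and Adgre5 were not tested there.

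Megakaryocyte genes outside the rule were tested in 4 lists, and 1 gene of these lists, Rgs10, passed, against 0.27% of all genes. Ache and Tbxas1, called above, were in none of the 4 lists. Of all 8879 genes, 484 were lower at an unadjusted p under 0.05 and 4374 were below 0. Of 13 receptors tested 0 passed (8 at an unadjusted p under 0.05, all lower), 12 were below 0 and the median log2 fold change was -0.77. Granule genes had 0 of 8 and a median of -0.85, signalling and cytoskeleton genes 1 of 17 and -0.94, and transcription factors 0 of 19 and -0.30, beside 0.01 over all genes. At an unadjusted p under 0.05 in edgeR, 4, 10 and 4 genes were lower in the same order, and 0, 1 and 1 were higher. Vwf was -1.51 (SE 0.45, edgeR adjusted p = 0.265). Its value rested on the libraries, at -2.95 without knockout 2, where it passed, and -0.90 without knockout 1, and it passed in 4 of 19 alternatives, among them the replicate block at -1.97 (edgeR adjusted p = 0.0277). Rap1b was -0.95, Zfpm1 -0.81, Gata1 -0.58 and Slc14a1 -0.01, none of which passed. With members chosen at equal depth the 4 medians were -0.38, -0.31, -0.19 and -0.04, Vwf was -0.67, Gata1 was -0.03, Rap1b turned to 0.14 and Slc14a1 to 0.98 (edgeR adjusted p = 0.686). Knockout members were deeper, with medians of 31256 and 18424 UMIs against 6222 and 12518. The part of depth in the lower levels was not tested beyond these values.

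Nrgn, neurogranin, a calmodulin-binding protein also found in platelets, stood at the threshold. It had 594, 908, 252 and 305 CPM in the megakaryocyte-primed cells and 144, 170.1, 160.5 and 197 in the other cells. Knockout members lay below control members, with a log2 fold change of -1.41 (SE 0.26) and an adjusted p of 0.0513 from edgeR, and DESeq2 gave an adjusted p of 0.00181. It passed in 15 of 19 alternatives, and members chosen at equal depth gave -1.43 (edgeR adjusted p = 0.0249). With Pf4 at 2 or more per 3000 UMIs it was -1.14 (edgeR adjusted p = 0.284). The gene is on chromosome 9 of GRCm38 (37544492 to 37552904, minus strand).

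Cd48 rose and was the single higher call. This surface protein of the SLAM family, by which MPP2 and MPP3 are told from stem cells, had 37.7, 46.2, 122 and 99.3 CPM in the megakaryocyte-primed cells (log2 fold change 1.51, SE 0.26, edgeR adjusted p = 0.0353), and knockout libraries lay above controls. A UMI of it was found in 18.4%, 46.7%, 66.7% and 55.2% of members at their own depth and, after thinning to 3000 UMIs, in 10.2%, 13.3%, 20.8% and 20.0%. Other cells had 95.8, 138, 160.3 and 161 CPM (log2 fold change 0.41). The call was kept in 9 of 19 alternatives, and DESeq2 gave an adjusted p of 0.216. Cd48 was 1.63 with members chosen at equal depth and 0.95 with Pf4 at 2 or more per 3000 UMIs. It passed in neither (edgeR adjusted p of 0.806 and 0.847). The next genes by p did not pass: Gch1 (2.04), Egfl7 (1.18), Def8 (2.13) and Tgfbi (2.33 on the log2 scale) had edgeR adjusted p of 0.0589 to 0.0641. Tgfbi, a matrix protein, was found in 4.80% and 6.67% of control members and in 54.2% and 36.0% of knockout members, at their own depths.

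No gene of several other lists passed between genotypes, where 0.27% of all genes passed, a share at which lists of this size hold few calls or none. These were G1/S (0 of 18, median log2 fold change 0.09), G2/M (0 of 22, 0.13), erythroid (0 of 10), stem (0 of 13), cell cycle inhibitors and D cyclins (0 of 9), interferon-stimulated (0 of 15) and Nup358, HDAC3 and the regulators that the study discusses (0 of 17, 0.03). At an unadjusted p under 0.05 the counts were 0, 0, 4, 3, 3, 3 and 1 in the same order, beside 392 higher and 484 lower over all 8879 genes. Hdac3, a histone deacetylase, had 37.7, 71.8, 41.1 and 50.4 CPM. Of 10 neutrophil and monocyte genes tested 0 passed in the members, with a median log2 fold change of -0.70, while 11 of 20 fell in the other cells (2.05% of all genes were lower there), with a median of -2.35. The median in members was also -2.35 with Pf4 at 2 or more per 3000 UMIs of the cell, over 4 genes tested, of which 0 passed. Of 7 surface genes of LSK subsets 1 rose, Cd48. Lymphoid (4 tested), basophil (2) and other cell type genes (2) had 0 calls, and 3 of the 8 had an unadjusted p under 0.05 in the direction of higher levels and 1 in that of lower.

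Whether the genotype difference of the megakaryocyte-primed cells differed from that of the other cells was tested on 8 sums, members and other cells of each library, with the library as a block. Of 12466 genes, 194 passed an adjusted p of 0.05 in edgeR (1.56%), 106 with a more positive difference in the members (0.85%) and 88 with a more negative one (0.706%). DESeq2 called 20, all among the 194. The edgeR fit gave all genes 1 shared spread, with no spread of their own, so its p-values are very small for genes whose UMIs lie in few cells. Counts of calls were 39 without control 1, 216 without control 2, 35 without knockout 1 and 92 without knockout 2, and 13 genes were called without each library in turn. One is Pf4, whose level in the members the rule and the depth of the cells help to set, so that its call is no result. The others were Fcer1g, Cxcl10, Plac8, Cd9, Hbb-bs, Prtn3, Ctsg, Nrgn, Mpo, H2afy, Ms4a6c and Pgam1.

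Nrgn was the only gene called in the same direction by DESeq2, without each library in turn and under each other alternative that kept the comparison with all other cells. Its difference was -1.46 (SE 0.13, edgeR adjusted p = 1.17e-25, DESeq2 adjusted p = 8.71e-12), with a log2 fold change of -1.41 in the members and 0.14 in the other cells. Against erythroid-primed cells in place of all others, the difference was -1.09 and did not pass (edgeR adjusted p = 0.125). Cd9 had a difference of -1.21 (DESeq2 adjusted p = 4.14e-05), from -0.79 in members and 0.32 in other cells. The fold change of Cd9 in members was -0.26 when they were chosen at equal depth and -0.20 with Pf4 at 2 or more per 3000 UMIs. Plac8, at 530, 595, 836 and 480 CPM in members and 1588, 1960.3, 1193 and 845 in other cells, had a difference of 1.06, and Pgam1, a glycolytic enzyme, one of 1.00, and both passed in DESeq2 (adjusted p of 4.14e-05 and 0.000149). In members Plac8 was 0.24, then -0.02 at equal depth and -0.60 with Pf4 per 3000 UMIs, where Pgam1 was 0.70, 0.82 and 0.59. Cxcl10, an interferon-induced chemokine, had 0.943, 5.13, 14.2 and 9.47 CPM in members and 35.9, 66.0, 8.48 and 5.79 in other cells, with 1, 1, 26 and 25 UMIs behind the member values. The UMIs lay in 7 cells of knockout 1 and 8 of knockout 2, where 1 cell held 15 of the 25. Prtn3, Mpo and Ctsg, neutrophil granule proteases and peroxidase, fell in the other cells (log2 fold change -2.49, -2.32 and -1.83), and in members they were -0.69, -0.71 and -0.58, where none passed and control 2 held 8, 1 and 0 UMIs. With Pf4 at 2 or more per 3000 UMIs of the cell, the members were at -2.97 for Prtn3 and -3.28 for Mpo, and the differences from the other cells turned to -0.0468 and -0.55.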

How the data were processed

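LSK cells from 4 libraries were profiled by droplet sequencing of 3′ transcript ends. Cell Ranger 3.1 was run by the authors with GRCm38 (submitters' processing notes), and the deposited values are whole-number counts of UMIs for 27998 genes, without normalization. The study's methods name DESeq2 for tests, and no cell filter is given in the sources used here. Cells were chosen by the rule given above, and levels are UMIs per 1000000 of the summed UMIs (CPM, not divided by transcript length, since only 3′ ends are read). The members and the gene lists were chosen with earlier results of these data known.

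UMI sums per library were tested with edgeR 4.0.16 in R 4.3.3, with limma 3.58.1 (genes kept by filterByExpr, TMM scaling, quasi-likelihood test, Benjamini-Hochberg at 0.05), with DESeq2 1.42.0 as an alternative. Python 3.11.15 with numpy 2.4.6, pandas 2.3.3, scipy 1.17.1 and matplotlib 3.10.9 was used for the rest. Log2 ratios of members to other cells have 5 CPM added, and list counts compare CPM. Thinning drew UMIs at random without replacement to 3000 per cell and left out shallower cells. The fits were also run on simulated library sums with 1 spread shared by all genes. Such sums hold no single cells, so they do not show how the fits behave where few cells hold a gene's UMIs.

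Genes named in the text belong to the rule or the lists, are the 20 highest and 10 lowest by the least extreme of the 4 ratios at 20 or more CPM, are called between genotypes (the 10 largest falls; with under 5 calls the 5 smallest p), or have the 10 smallest p for the difference. Other called genes, genes kept in the difference without each library, Nrgn and the genes at the ends of the distributions were named after their values were seen. Some genes that these rules name are not reported here. Replicate numbers do not pair libraries in the labels, and deviations of same-numbered libraries had a correlation of 0.0367 over 8879 genes. Sequences before gene starts are from RefSeq (GRCm38.p6), and gene positions from GENCODE on GRCm38.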

Additional observations from a re-analysis of the deposited data

Results flagged for a closer look

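For 10 genes the knockout effect in the megakaryocyte-primed cells differed from that in the other kept cells by a test of the difference itself (edgeR with Benjamini-Hochberg adjustment, the 10 smallest p). All differences are log2 fold changes, members minus other cells, from 2 libraries per genotype.

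Plasma and B lineage genes came first. The difference was -4.97 for Jchain (joining chain of antibodies), -5.81 for Ly6d, -5.76 for Mzb1 and -3.45 for Cd74 (invariant chain of MHC class II). Behind Jchain in control 1 were 332 UMIs in 2 of 125 members, 92.2% of them in 1 cell, and 1 cell held 99.3% of its UMIs in knockout 1 and 97.6% in knockout 2. Control 2 had no UMI of Jchain, Ly6d or Mzb1. DESeq2 called none of the 4, and without control 1 their sign turned.

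Neutrophil genes were more positive in the members, by 1.75 for Prtn3 and 1.63 for Mpo, where the other cells fell and control 2 held 8 and 1 UMIs in its members. With Pf4 at 2 or more per 3000 UMIs of the cell both differences turned, to -0.0468 and -0.55. Hbb-bs, a beta globin that may share UMIs with its near-identical copy Hbb-bt (difference 0.98), had a difference of 6.96, with 4, 0, 8 and 19 UMIs in the members and 84.0, 947, 2.52 and 4.22 CPM in the other cells. H2afy, a histone variant, had 1371, 446, 1973 and 1446 CPM in members (difference 1.02). Its log2 fold change in members was 0.90, then 0.28 when they were chosen at equal depth and 0.09 with Pf4 at 2 or more per 3000 UMIs. DESeq2 called none of these 4 either.

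Pf4 had a difference of -2.33, a description only, since the rule used Pf4. Nrgn had one of -1.46 and was the only one of the 10 that DESeq2 also called.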

How the results depend on the processing

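The share difference of 1.97 points between knockout and control kept its direction with copied barcodes kept (1.68), with each library left out (1.63 to 2.32), and at other thresholds: it was 3.56 with Pf4 at 1 or more UMIs, 1.02 at 4 or more, 2.60 with no limit on Klf1 and Ermap, 1.55 without the cells of highest UMI count and 1.46 without cells of another lineage. It turned to -0.26 at 3000 UMIs and to -0.0649 with Pf4 at 2 or more per 3000 UMIs, and it was 0.164 at 5000 UMIs and 0.0213 at 1000, where 11, 0, 1 and 4 members were left. Genes called between genotypes were 1 higher and 23 lower. Higher and lower calls were 0 and 23 with DESeq2, 4 and 32 with its size factors, 5 and 35 with Pf4 at 1 or more UMIs, 3 and 24 at 4 or more, 0 and 4 with Pf4 at 2 or more per 3000 UMIs, 2 and 25 with libraries blocked by complexity, 2 and 12 with members chosen after thinning, 51 and 143 with no filter on low counts, 9 and 46 with no erythroid limit, 6 and 29 with a robust prior, 0 and 2 with members thinned to 3000 UMIs, and 4 and 33 without the cells of highest UMI count. With the replicate number as a block there were 2 and 35, of which 19 were among the 24, but the labels do not pair the libraries, and with only 2 pairs the pairing could not be judged from the data. With a library left out, higher calls were 3 to 83 and lower calls 22 to 126. Genes that differed from the other cells (194) were 20 with DESeq2, 25 with Pf4 at 2 or more per 3000 UMIs, 26 against erythroid-primed cells, 22 with members chosen after thinning, and 35 to 216 with a library left out. The cause of these changes was not tested. Of 722 refitted fold changes of 39 named genes, 500 kept their direction and side of the threshold, 118 lost the call, 92 gained one and 12 turned: Ranbp2 to -0.28 (thinned to 3000 UMIs) and -0.0843 (without control 2; up to 0.46 without control 1), and Rap1b to 0.13 (Pf4 per 3000 UMIs) and 0.14 (members chosen after thinning). Slc14a1, near 0 at -0.01, turned to 0.79 (Pf4 per 3000 UMIs), 0.98 (members chosen after thinning), 0.19 (Pf4 at 4 or more UMIs), 0.0104 (no filter on low counts), 0.33 (without cells of another lineage) and 0.26 (without the cells of highest UMI count), and ranged from -0.24 to 0.15 with a library left out. Of 110 refitted differences of 10 genes, 76 stayed, 28 lost the call and 6 turned: without control 1 Jchain to 11.3, Ly6d to 8.59, Cd74 to 1.48 and Mzb1 to 8.76 (the other ends, without control 2, were -6.03, -6.51, -3.88 and -6.87), and with Pf4 per 3000 UMIs Prtn3 to -0.0468 and Mpo to -0.55. The Pf4 per 3000 UMIs, 5000 UMI, equal-depth and robust settings were chosen after seeing the data. Control 2 had the fewest members (15).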
